A study of Mus musculus with 2 samples.

Results

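Thrombospondins 1 to 4 are secreted glycoproteins of the extracellular matrix, and their transcripts (Thbs1, Thbs2, Thbs3 and Thbs4) were measured in mouse rib chondrocytes with the wild-type or the V156D knock-in allele of Matn1, the gene of matrilin-1, an oligomeric cartilage matrix protein. All probe sets that the platform annotation ties to 1 of these 4 symbols alone were taken. They came to 7 of 45037 probe sets, and to 4 of 18193 genes with at least 1 probe set of their own. Both groups were mice at 5 days of age, each represented by 1 Affymetrix Mouse Genome 430 2 array, so that the wild-type group and the V156D group differed by the Matn1 allele as far as the labels say. Chondrocytes were freed from dissected ribs with collagenase, and the RNA was made from cells pooled over 5 littermates. The sources used here do not state the strain, the sex, whether the knock-in was homozygous or whether 5 animals entered each pool. The family was chosen by its measured intensities in these 2 arrays as well as by its symbols, and with 1 array per genotype no value has an error over samples and no test was made. Higher and lower below describe the V156D array relative to the wild-type array.

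Thrombospondins fall into subgroup A, the trimers thrombospondin 1 and 2, and subgroup B, the pentamers thrombospondin 3, thrombospondin 4 and cartilage oligomeric matrix protein (encoded by Comp). Subgroup A carries type 1 repeats, through which it binds the receptor CD36 and restrains vessel growth, whereas subgroup B lacks them, and all members share a calcium-binding C-terminal part that contacts collagens, integrins and other matrix proteins. In skeletal tissues Comp is a major product of chondrocytes, thrombospondin 4 is abundant in tendon and at muscle attachments, and thrombospondin 2 is made by fibroblasts and mesenchymal cells.

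The DNA just upstream of the genes is shown because Thbs2 and Thbs4, the members with the higher signals in the V156D array, can be set beside Thbs3, whose signals were nearly equal. RefSeq promoter entries of GRCm38.p6 were found for 3 of the 4 members, and the 250 bases before the annotated start are printed from 5′ to 3′ on the gene's strand. Capitals mark the E-box, CANNTG, the core recognised by basic helix-loop-helix factors such as scleraxis and TWIST1, which was searched on both strands, as were the other motifs.
Thbs2, chr17:14694263-14694512, minus strand: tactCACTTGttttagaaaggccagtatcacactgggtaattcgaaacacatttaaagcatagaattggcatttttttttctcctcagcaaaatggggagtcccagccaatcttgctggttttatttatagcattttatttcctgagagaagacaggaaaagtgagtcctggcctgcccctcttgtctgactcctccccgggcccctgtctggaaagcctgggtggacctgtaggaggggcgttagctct
Thbs3, chr3:89214930-89215179, plus strand: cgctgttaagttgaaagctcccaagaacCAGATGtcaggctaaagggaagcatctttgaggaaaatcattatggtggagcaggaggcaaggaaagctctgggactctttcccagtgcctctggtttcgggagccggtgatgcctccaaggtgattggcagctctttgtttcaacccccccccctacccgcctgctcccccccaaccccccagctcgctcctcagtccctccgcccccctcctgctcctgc
Thbs4, chr13:92794819-92795068, minus strand: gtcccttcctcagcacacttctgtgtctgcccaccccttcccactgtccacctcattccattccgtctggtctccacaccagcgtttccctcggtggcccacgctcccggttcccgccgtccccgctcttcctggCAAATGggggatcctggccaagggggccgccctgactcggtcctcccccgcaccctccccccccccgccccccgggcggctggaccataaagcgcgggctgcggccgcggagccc
Each of the 3 windows held 1 E-box, at 246 bases before the start in Thbs2, 222 in Thbs3 and 115 in Thbs4, and 66.2% of all 32851 promoter windows of this length hold at least 1. With a motif this common nothing is read from its presence in all 3, and only these 250 bases were searched. Base composition differed widely within the family, with 46.8% G and C in Thbs2, 58.8% in Thbs3 and 70.8% in Thbs4, against a median of 52.4% over all windows. Thbs4 held 3 copies of the GC box GGGCGG on either strand and Thbs3 held 1, while 32.7% of all windows hold it. Thbs2 held none of these but had 1 match to the TATA box letters TATAAA (in 12.4% of all windows) and 2 CCAAT boxes (CCAAT, 33.8%). The TATAAA match lay on the opposite strand, 126 bases before the start, and reads TTTATA as printed. The motif CAGACA, which contains the SMAD-binding CAGA, matched 2 times in Thbs2 and 1 time in Thbs4 and in 17.1% of all windows. TGANTCA, the AP-1 motif (6.75%), and the CArG box of serum response factor (1.47%) had no match in these windows. The SOX motif ACAANG (36.3%) matched 1 time, in Thbs3. A match is a string of letters and not a shown binding site.

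The arrays had similar signal distributions, with median intensities of 54.3 and 55.1 and a correlation of 0.994 between their log2 signals, taken over probe sets and so not over independent replicates. A signal floor was set at the median of the mean log2 signal over all probe sets, an intensity of 54.6. It was passed by 11329 genes, each represented by its brightest probe set, and by all 4 thrombospondins with all 7 of their probe sets. The central 95% of log2 ratios over these genes ran from -0.55 to 0.49, with a median of -0.02. Matn1, whose probe set does not tell the alleles apart, had intensities of 4373 in wild type and 4340 in V156D. All 17 chondrocyte markers were above the floor in both arrays, and 0 differed by 1.5-fold in either direction, against 3.72% of all genes. Probe sets differ in how brightly they report, so levels are compared between arrays and never between genes.

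Of the 4 thrombospondins, Thbs2 and Thbs4 had at least 2-fold higher signals in the V156D array, and Thbs1 and Thbs3 were within 1.5-fold. A 2-fold higher signal was seen in 0.653% of the 11329 genes and a 2-fold lower one in 0.256%. By probe set, 3 of the 7 were past 2-fold higher, against 0.591% of all probe sets that passed the floor. As the family was picked with this comparison in view, nothing is read from its count.

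Thbs1, the trimer known as an activator of latent TGF-beta and as a cargo of platelet granules, gave almost the same signal in both arrays. Its brightest probe set, 1460302_at, gave 6142 in wild type and 5863 in V156D (intensity, as below), a log2 ratio of -0.07. The other, 1450377_at, had 2357 and 2078, a log2 ratio of -0.18. Both were thus slightly lower in the V156D array, and they averaged -0.12 ± 0.08 on the log2 scale (SD across the 2 probe sets and not across samples). Of the 11329 genes, 28.0% had a ratio at least as near to 0 as that of the brightest Thbs1 probe set.

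Thbs2, the other trimer, known for its part in collagen fibril assembly and in limiting vessel growth, was higher in the V156D array by every probe set. The probe set 1422571_at had 706 in wild type and 1824 in V156D, which is 2.58-fold or a log2 ratio of 1.37. A very similar difference came from 1450663_at, at 648 and 1722, a log2 ratio of 1.41. The third, 1447862_x_at, whose suffix marks probes that may match other transcripts, had 505 and 908, a log2 ratio of 0.85 and short of 2-fold. Together they averaged 1.21 ± 0.32 on the log2 scale (SD across the 3 probe sets). The probe sets agreed in direction and spanned 0.57 on the log2 scale. For scale, in the 4878 genes with 2 or more probe sets past the floor, the log2 ratios of the 2 brightest differed with an SD of 0.26.

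Thbs3, a pentamer of skeletal tissue, was near equal in both arrays by its only probe set, 1416623_at, with 3057 in wild type and 3254 in V156D. The log2 ratio was 0.09, and 36.6% of genes had a ratio at least as near to 0.

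Thbs4, the tendon-rich pentamer, showed the widest difference of the family. Its only probe set, 1449388_at, had 782 in wild type and 2646 in V156D, 3.38-fold higher or a log2 ratio of 1.76. No second probe set exists for Thbs4 under the rule used here, so its value could not be set against another probe as for Thbs2. Comp, the remaining pentamer and no member of the set described, had 13039 and 13562, a log2 ratio of 0.06. Within subgroup B only Thbs4 of the 3 genes was at least 2-fold higher, and within subgroup A only Thbs2 of the pair. By these values the 2-fold differences did not follow the trimer and pentamer subgroups.

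**Figure D1:**
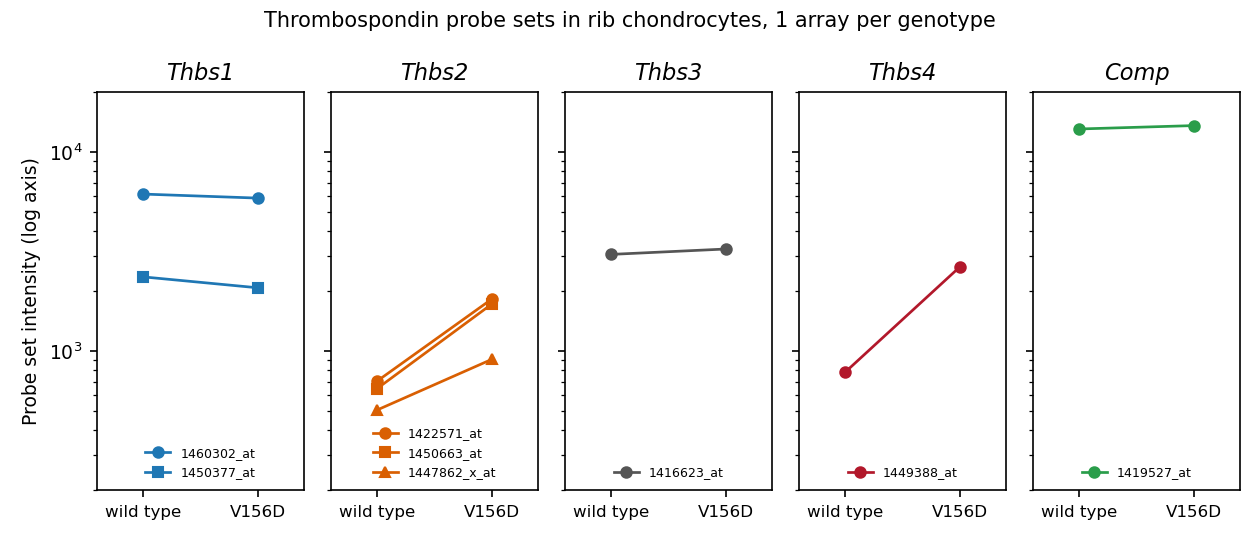
Intensity of every thrombospondin probe set and of Comp in the wild-type and V156D arrays, on a log axis, with 1 line per probe set and 1 array per genotype. The 3 Thbs2 lines and the Thbs4 line climb to the V156D array (Thbs4 from 782 to 2646), whereas the Thbs1, Thbs3 and Comp lines are nearly level.

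Ranked from the highest ratio down, Thbs4 was number 10 and Thbs2 number 32 of the 11329 genes. Among the 840 other genes whose mean log2 signal lay within 0.5 of Thbs4, 0 had a ratio as high. For Thbs2 there were 1057 such genes, and 3 had a ratio at least as high. These windows had SDs of 0.23 in log2 ratio, and 0.595% and 0.473% of their genes were at least 2-fold higher, the members included. The signals of Thbs2 and Thbs4 lay far above the floor in both arrays, with mean signals at percentiles 94.6 and 95.8 of all probe sets. As the family was chosen by these same intensities, the ranks and windows describe its values and nothing more is read from them.

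**Figure D2:**
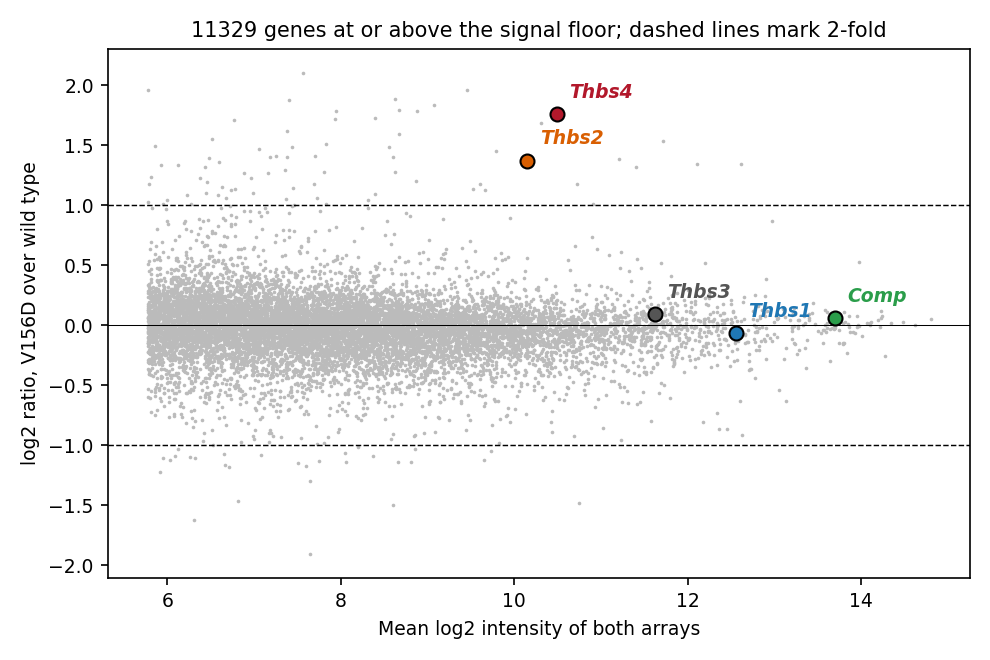
Log2 ratio of V156D over wild type against mean log2 intensity for the 11329 genes at or above the signal floor (grey), with the 4 thrombospondins and Comp in colour. Thbs4 (1.76) and Thbs2 (1.37) lie above the dashed 2-fold line, and Thbs1, Thbs3 and Comp lie close to 0.

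Genes with the most similar ratio were sought among those with mean log2 signal within 0.5 of each member, over 2 arrays, by the difference in log2 ratio. For Thbs4 they were Col14a1, a collagen of fibrous tissue and tendon (log2 ratio 1.69), Thbs2 itself, and Ptn, the growth factor pleiotrophin (1.17). For Thbs2 they were Col4a1, a basement membrane collagen (1.45), Tnc, the matrix protein tenascin C (1.13), and Col14a1. As the mean over their probe sets, Tnc gave 0.53 and Col14a1 1.27. With so few genes that high at this signal, even the third nearest gene differed from Thbs4 by 0.58. Around Thbs1 and Thbs3 the ratios were dense, and the nearest genes (Dusp1, Selenok and Cd9 for Thbs1, Tpm3, Calu and Rtraf for Thbs3) differed by at most 0.0047, which is many times less than the disagreement between probe sets and makes that choice of names arbitrary.

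Most thrombospondin receptors had similar signals in both arrays, and Cd36 was the member farthest from 0. The floor was passed by 18 of 23 listed genes, of which 13 had ratios above 0 and 5 below. Of these 18, 2 were at least 2-fold higher and 0 were lower by 2-fold, with a median of 0.08 against -0.02 over all genes. Over all genes 44.8% had ratios above 0 and 0.653% were at least 2-fold higher. Cd36, the receptor for the type 1 repeats of thrombospondin 1 and 2, had 134 in wild type and 382 in V156D, 2.84-fold higher. The mean log2 ratio of its 3 probe sets was 1.37 ± 0.17 (SD across probe sets). Notch3, whose protein binds thrombospondin 2 and which marks mural cells, had a log2 ratio of 1.10, but 0.55 by its other probe set, which was below the floor. Cd47, the receptor for the C-terminal part, had 812 and 889, a log2 ratio of 0.13. The lowest were the lipoprotein receptor gene Vldlr at -0.28 and Scarb1, a relative of Cd36, at -0.22. In the CD36 and CD47 axis of vessel growth and nitric oxide signalling, 9 genes passed the floor. Cd36 was the only 1 of them to differ by 1.5-fold, against 3.72% of all genes. The VEGF receptor gene Kdr had 0.35, the kinase gene Fyn -0.32, and Vegfa -0.04, which was 0.04 after quantile normalization.

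Most matrix proteins that bind thrombospondins had similar signals in both arrays. All 22 measured genes passed the floor, 14 with ratios above 0 and 8 below. Among them 2 were at least 2-fold higher and 0 were lower by 2-fold, against 0.653% and 0.256% of all genes. The median was 0.06. Col14a1 had 705 in wild type and 2266 in V156D, and Col1a1, a chain of collagen I of bone and tendon, had 2759 and 7010, log2 ratios of 1.69 and 1.35. The value of Col14a1 was known when the list was made. Its 3 probe sets had a mean log2 ratio of 1.27, with the lowest at 0.86 and short of 2-fold. Col9a2, a chain of cartilage collagen IX, was lowest at -0.35, followed by the gelatinase gene Mmp9 at -0.27.

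Other secreted proteins with type 1 repeats, the module of subgroup A, were mostly near 0. The floor was passed by 27 of 40 measured genes, and 19 of the 27 had ratios above 0 and 8 below. Here too 2 were at least 2-fold higher and 0 lower by 2-fold, against 0.653% and 0.256% of all genes, with a median of 0.14. These 2 were Cilp, whose value was known when the list was made, and Adamts12, which passed the floor only through the V156D array. Nothing is read from this count. Cilp, a secreted matrix protein of articular cartilage, had 135 in wild type and 444 in V156D, a log2 ratio of 1.72. The protease gene Adamts12 had 1.34 from a wild-type signal below the floor, and 0.75 as the mean over its probe sets. Ccn3 and Ccn1, matricellular genes, were lowest at -0.34 and -0.26, with Ccn1 at 0.01 by its probe set with a plain _at suffix. From a list of enzymes that attach sugars to type 1 repeats, 6 were at or above the floor. The list also holds Pofut1, which acts on EGF-like repeats. Of the 6, 0 differed by 1.5-fold, against 3.72% of all genes. Pofut1 and B3glct had 0.22 and 0.17, and Pofut2 and Dpy19l3 had -0.29 and -0.16. Pofut2, which adds O-fucose to the repeats, was at 0.08 by its brightest plain _at probe set.

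The TGF-beta list, whose latent complex thrombospondin 1 is known to activate, had 17 members past the floor, with a median of 0.13. Of these, 12 had ratios above 0 and 5 below, against 44.8% above 0 over all genes. At 2-fold 0 differed either way, against 0.653% higher and 0.256% lower over all genes. At 1.5-fold 1 differed, Ltbp2, against 3.72% of all genes. Ltbp2 and Ltbp4, latent TGF-beta binding proteins of elastic fibres, were highest at 0.76 and 0.57. The receptor gene Tgfbr1 and the TGF-beta-induced matrix gene Tgfbi were lowest at -0.10 and -0.06.

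Thrombospondin 4 is known to bind the endoplasmic reticulum (ER) sensor ATF6, and Atf6 and ER folding genes were therefore listed. Of 18 members, 12 had ratios below 0 and 6 above, 0 differed by 1.5-fold, and the median was -0.18. Over all genes 55.0% had ratios below 0, 3.72% differed by 1.5-fold and the median was -0.02. Syvn1, an ER ubiquitin ligase, and Creld2, an ER stress gene, were lowest at -0.42 and -0.40. Calr and Canx, lectin chaperones, were highest at 0.08 and 0.07, and both were below 0 (-0.12 and -0.10) as the mean over their probe sets. Among serum response and YAP target genes, a class that includes Thbs1, 0 of the 19 that passed the floor differed by 1.5-fold. Of these, 18 had ratios below 0 and 1 above, and the median was -0.19, with Egr2 and Egr3 at -0.50 and -0.40, and Klf6 and Ccn2 at -0.01 and 0.09. Egr3 was at -0.03 as the mean over its probe sets. Thbs1, at -0.07, lay within the range of this list.

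Markers of tendon, fibroblasts and endothelium were higher in the V156D array, beside Thbs2 and Thbs4. In bulk RNA more cells of a type and more RNA per cell cannot be told apart, and the part of cell makeup in the Thbs2 and Thbs4 values was not tested. Of 11 tendon markers 10 had ratios above 0 and 7 were at least 2-fold higher, against 44.8% and 0.653% of all genes. Egfl6, a secreted matrix protein, was highest at 2.10 and Fmod, the collagen-binding fibromodulin, lowest at -0.02. The values of 4 of them (Egfl6, Kera, Cilp and Col14a1) were known when the list was made, and among the other 7, 6 were above 0 and 3 at least 2-fold higher, with a median of 0.74. Tnmd, the tendon membrane protein tenomodulin, had 1977 in wild type and 5744 in V156D, and Scx, the tendon transcription factor scleraxis, had 50.1 and 73.0, from just below the floor. Scx thus passed the floor only through the V156D array, and its mean log2 ratio over 2 probe sets was 0.35. Tnmd and Scx are named after their values were seen. The summed intensity of the tendon list, which bright probe sets dominate, was 1.31 times as high in V156D. It was 2.87 times as high without Fmod, its brightest member and also the member with the lowest ratio. The same omission took the fibroblast sum from 1.43 to 1.42 times, the endothelial from 1.51 to 1.70 and the osteoblast from 2.45 to 1.23. In wild type 10 of 11 tendon markers were at or above the floor, and 9 of the 10 had ratios above 0 and 7 were at least 2-fold higher.

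Among the 19 fibroblast markers past the floor, 17 had ratios above 0, 5 were at least 2-fold higher and 0 lower by 2-fold, with a median of 0.61. The shares over all genes, for this list and the next, were 44.8% above 0 and 0.653% at least 2-fold higher. Col14a1, 1 of the 5, was highest, and it is also on the tendon list and was known in value when the lists were made. Pdgfra, a receptor of fibroblasts, was lowest at -0.10. The summed intensity of the fibroblast list was 1.43 times as high in V156D, and 19 of 20 measured markers were at or above the floor in each array. Of 12 endothelial markers 6 were at or above the floor in wild type, and of these 5 had ratios above 0 and 2 were at least 2-fold higher, with a median of 0.65. By mean signal 8 passed, including Emcn and Robo4 (named after their values were seen), which did so only through the V156D array, and the median was then 0.89. Cdh5, the endothelial cadherin, had 55.1 and 144, a log2 ratio of 1.39, which was 0.75 as the mean over its probe sets. Egfl7 was lowest at -0.19, which was 0.06 as the mean over its 4 probe sets. The endothelial sum was 1.51 times as high in V156D, where 10 of 12 were at or above the floor.

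The other cell types did not share a direction with each other. Of 9 mural markers past the floor 7 had ratios above 0, 2 were at least 2-fold higher and 1 was lower by 2-fold. Over all genes these shares were 44.8%, 0.653% and 0.256%. Rgs5, a pericyte gene, was highest at 1.48 and Cnn1, a smooth muscle gene, lowest at -1.08, and the mural median was 0.10. All 5 muscle markers at or above the floor were below 0, against 55.0% of all genes, with Myod1 lowest at -0.74 and Ckm highest at -0.02. The platelet gene Pf4, named after its value was seen, was below the floor in both arrays (19.5 and 18.2), as were 5 of 9 measured platelet genes by their mean signal, and Gp9 and Treml1 had 0.28 and 0.02. Among 5 macrophage genes that passed the floor Fcgr1 had 0.20 and Cd14 -0.34, and none differed by 1.5-fold, against 3.72% of all genes. The 3 osteoblast markers at or above the floor were all above 0, from Sp7 at 0.09 to Col1a1, which is also on the fibroblast list. Alas2 at 0.31 was the only erythroid gene to pass. Chondrocyte markers ran from Ucma at -0.38 to Col11a2 at 0.15, with a median of 0.02. Sex-linked transcripts, named after their values were seen, also differed, with Xist at 7755 and 5006 and Eif2s3y at 230 and 490. The part of pool sex in the thrombospondin values was not tested and cannot be told apart from genotype here.

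**Figure D3:**
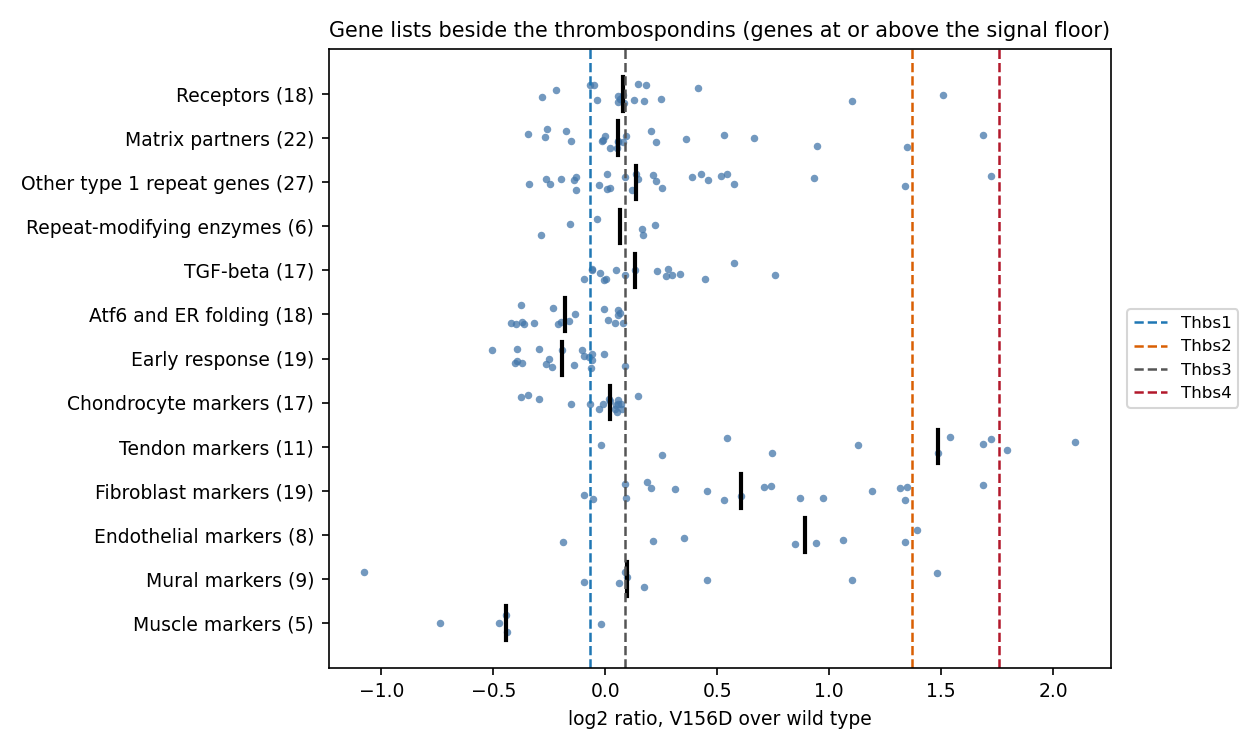
Log2 ratio of V156D over wild type for the genes at or above the signal floor in 13 lists (points, with the number of genes in brackets), with the list median as a black bar and each thrombospondin as a dashed vertical line. The tendon markers have a median of 1.49, or 0.74 without the 4 whose values were known when the list was made, the endothelial markers 0.89, or 0.65 for those at or above the floor in wild type, and the fibroblast markers 0.61, while the chondrocyte median is 0.02.

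The genes that flank the thrombospondins on the chromosome did not share the differences of Thbs2 and Thbs4. Gene order was taken from the RefSeq table of GRCm38.p6, and apart from the neighbours of Thbs3 these genes were chosen after the thrombospondin values were seen. Thbs2 lies between Smoc2, a calcium-binding matrix gene, and Wdr27. Smoc2 had 6679 in wild type and 6313 in V156D, a log2 ratio of -0.08, and Wdr27 was below the floor in both arrays. Dact2, the next gene beyond Smoc2, had 0.50. Thbs4 lies between Serinc5 and Mtx3, with log2 ratios of -0.04 and -0.22, the latter 0.08 by its brightest probe set with a plain _at suffix. Thbs3 lies between Mtx1 and Muc1, so that Thbs3 and Thbs4 each neighbour a metaxin gene, of the mitochondrial import family. Mtx1 had 930 and 1023, a log2 ratio of 0.14, and Muc1, a mucin gene, had -0.11. Of 10 measured genes around Thbs3, 5 were above 0 and 5 below, from -0.11 to 0.19, with a median of 0.00. None was past 1.5-fold, against 3.72% of all genes, and 44.8% of all genes were above 0. Krtcap2 was the highest at 0.19 (-0.05 as the mean over its probe sets) and Efna1, Dpm3, Clk2, Slc50a1, Fam189b, Scamp3 and Trim46 lay in between. Around Thbs1, Rasgrp1 and Fsip1 were below the floor by their mean signal, and Fam98b had -0.07.

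**Figure D4:**
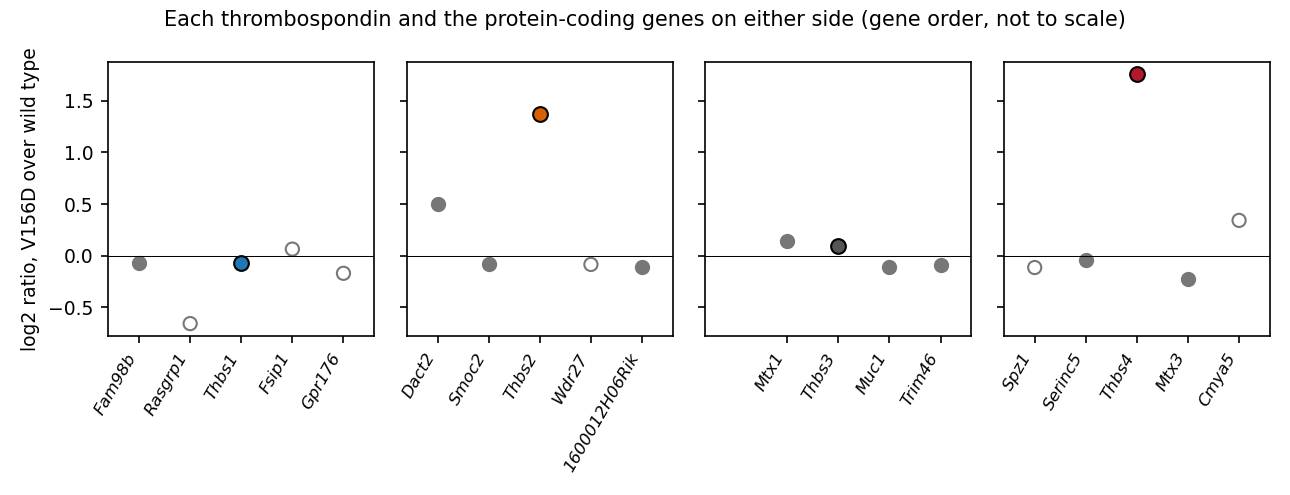
Log2 ratio of V156D over wild type for each thrombospondin (coloured) and up to 2 protein-coding genes on either side in chromosome order, with filled grey points at or above the signal floor and open points below it. Thbs4 (1.76) and Thbs2 (1.37) stand above their neighbours, of which Dact2 at 0.50 is the highest.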

How the data were processed

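The deposited values are linear intensity values that the authors had already summarised, covering 45037 probe sets on 2 arrays. The submitters' processing notes name MAS5 and no version, and the values do not settle the method. On the log2 scale 100% of them had no more than 5 decimals (tolerance 0.05 of a unit in the fifth), and the log2 ratio scattered least, with an SD of 0.17, in the weakest of 10 equal signal bins, whereas MAS5 signals usually scatter most there. Folds at low signal may therefore be compressed. Background step, scaling target and presence calls are unstated in those sources, so it is unknown whether the arrays were scaled together. Names came from GEO's platform annotation, updated by Entrez identifier against RefSeq GRCm38.p6, which held 34741 of the 34945 single-symbol probe sets and altered 0 names. Probe sets with several symbols (932) or no symbol (9160) were not used for genes. The log2 of each value was taken with no further normalization. Each gene was represented by its brightest probe set, and the floor was percentile 50 of mean log2 intensity. With 1 array per genotype there is no test, and the number of arrays limits the precision. Genes were counted at 2-fold. The members and the 20 lists, with 289 of 304 entries measured, were chosen with earlier results of these data known. Genes named were all members, Comp, Matn1, Cd36, Cd47, the neighbours of Thbs3, the 3 nearest genes per member, and the 2 highest and 2 lowest of each list (1 and 1 for cell markers) at or above the floor. Alternatives were centring, quantile and loess normalization (span 0.3), an offset of 32, other probe set choices, a floor at percentile 40, at percentile 60 or absent, and 1.5-fold and 3-fold thresholds. Counting was tested on simulated data. Python 3.11.15, numpy 2.4.6, pandas 2.3.3 and statsmodels 0.14.6 were used.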

Additional observations from a re-analysis of the deposited data

How the results depend on the processing

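Thbs2 stayed at least 2-fold higher under all 6 scalings and probe set choices tried, with log2 ratios from 1.21 to 1.43, and Thbs4 from 1.72 to 1.82. Thbs3 ran from 0.07 to 0.15 and Thbs1 from -0.12 to 0.00, both short of 1.5-fold. The background of 74 genes higher and 29 genes lower by 2-fold became 45 and 13 with the offset of 32, 193 and 229 at 1.5-fold, and 16 and 2 at 3-fold. Under centring, quantile and loess normalization, the mean over probe sets, the omission of probe sets with an _s_at, _x_at or _a_at suffix, and the other floors, both counts stayed within 1.5 times these. Of 485 recomputed values for 82 other named genes, 467 kept their direction and side of 2-fold or moved across 0 by less than the SD over genes, 11 fell short of 2-fold, 2 passed it, 5 moved across 0 by more, and 0 of those at least 2-fold reversed. Of 140 recomputed list medians, 137 moved by less than the SD of 0.27 over genes. No paired analysis was possible because each genotype has 1 array. An error between animals or between arrays was not measured.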

Other observations

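A further probe set, 1421811_at, carries the symbols Pald1 and Thbs1 together in the platform annotation and so is no member. Its intensity was 8452 in the wild-type array and 8346 in the V156D array, a log2 ratio of -0.02. With both Thbs1 probe sets at -0.07 and -0.18, all 3 probe sets that name Thbs1 had ratios between -0.18 and -0.02.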
